A study of Oreochromis niloticus with 5 samples.

Results

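The transcription factor genes myod1, myf5 and mef2ca and the MyoD-family inhibitor genes mdfi and mdfic2 were followed in RNA-Seq counts of Nile tilapia (Oreochromis niloticus) fast muscle. They are 5 of the 42625 genes that have a counted feature, and each was chosen by name and represented by 1 of the 80416 listed transcripts. The transcripts were rna15913 for myod1, rna49058 for myf5, rna16355 for mef2ca, rna10856 for mdfi and rna11560 for mdfic2.

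The samples were fast (white) muscle of 5 male fish, M1 to M5, that were full siblings of a single family, had no treatment and formed 1 group. The sample labels give an age of 5 months, while the study's methods describe a longer rearing time, so the age is uncertain. Total RNA was depleted of ribosomal RNA, and 1 library was made per fish. With 1 group there was no comparison of conditions, and the comparisons below set genes against each other within the same fish.

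MyoD, Myf5, myogenin and Mrf4 (the product of myf6) are basic helix-loop-helix (bHLH) proteins that bind E-box DNA together with E proteins and turn on muscle genes. In vertebrate embryos Myf5 and MyoD set muscle identity, and myogenin acts later, when myoblasts differentiate. MEF2 proteins are MADS-box factors that work with the bHLH factors on muscle promoters and remain active in fibres. The MyoD-family inhibitors, described in mammals as I-mfa (Mdfi) and HIC (Mdfic), bind myogenic factors and hold them inactive.

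The library totals ranged from 26750559 counts in M1 to 90337019 in M2. They are sums over transcripts, and a fragment could count for several, so they exceed the number of assigned fragments. The study's supplement gives M1 a much lower alignment rate and a lower share of assigned fragments than every other fish. What part this had in the M1 values was not tested. The counts were divided by size factors (DESeq2's median of ratios), and a value called a normalized count below is on that scale. The labelled tissue was checked against marker genes. Of 9 matched genes of the fast fibre list, 8 had at least 10 counts in every fish, and the summed level of the list lay between 1667070 and 2144740 normalized counts per kilobase. Of 9 slow fibre genes, 2 passed this minimum, which 27.5% of all genes passed. The summed level of the slow fibre list lay between 43.3 per kilobase in M3 and 331 in M1, where mybpc1 alone made up 257. The slow troponin I gene tnni1b had no count, and the slow myosin symbols smyhc1 and myh7 matched no gene. None of 4 matched liver genes passed the minimum, and fgb and fgg were at 0. Genes of fibroblasts (8 of 8, summed level 3690.2 to 9776 per kilobase), endothelium (7 of 7, 328 to 552), macrophages (4 of 5, 39.9 to 57.6), red blood cells (2 of 4, 50.1 to 109), adipocytes (2 of 5, 1918 to 3210.2) and nerve or glia (5 of 7, 775 to 1164) also passed it. Their part in the levels given here was not tested. The haemoglobin symbols hbaa, hbba, hba1 and hbb matched no gene, so the red blood cell sum leaves haemoglobin out. The fast fibre symbols tnnc2, tnni2, tnnt3, des and pvalb also matched no gene. In the adipocyte list, the means per kilobase were 2198 for fabp4a, 324 for lpla, 3.49 for pparg, 0.997 for cidec and 0 for fabp4b. The adipocyte symbols adipoq and plin1 matched no gene. In such bulk samples, fewer cells of a type and less RNA per cell cannot be told apart.

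In this muscle, mef2ca and myod1 were abundant, myf5 was low but present, and mdfi and mdfic2 were near 0. Of the 5 genes, 3 (mef2ca, myod1 and myf5) had at least 10 counts in every fish, and 4 (mdfi as well) had at least 1. Among all listed transcripts 34.9% met the first minimum and 47.5% the second, and among all genes, each by its most expressed transcript, 27.5% met the first. Levels of different genes are compared per length, as normalized counts per kilobase of exon. On this scale the means were 2398 ± 444 for mef2ca, 905 ± 290.5 for myod1, 29.2 ± 9.002 for myf5, 0.938 ± 0.530 for mdfi and 0.485 ± 0.856 for mdfic2 (SD, n = 5 fish). By these means, mef2ca was above 99.2% of the genes, myod1 above 98.2%, myf5 above 82.0%, mdfi above 58.5% and mdfic2 above 54.2%. The median level over all genes was 0.255 per kilobase, and 40.1% of genes had no count in any fish. In TPM, which scales the length-corrected counts of each library to the same total, the means were 141 ± 31.1 for mef2ca, 52.6 ± 16.2 for myod1, 1.71 ± 0.559 for myf5, 0.0562 ± 0.0344 for mdfi and 0.0288 ± 0.0511 for mdfic2 (SD, n = 5 fish). That total runs over all listed transcripts, and a fragment could count for several. These TPM are therefore not comparable with TPM of fragments counted once.

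**Figure D1:**
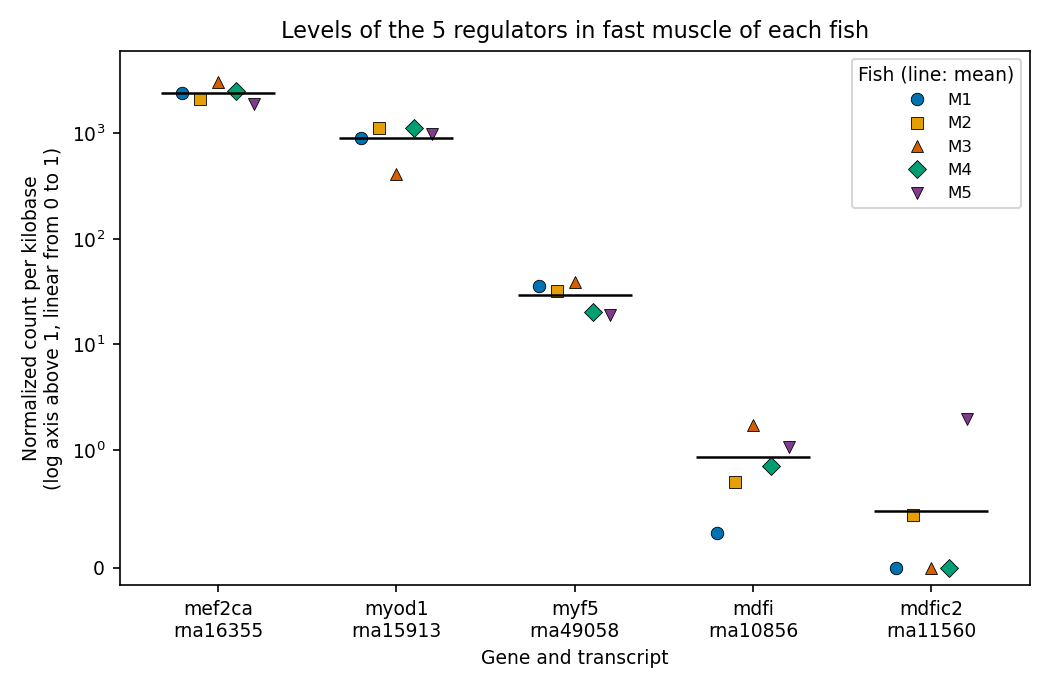
Normalized counts per kilobase (y axis, logarithmic above 1 and linear from 0 to 1) of the 5 regulators (x axis) in each fish (symbols), with the mean as a line. The points of mef2ca, myod1 and myf5 form 3 separate levels with means of 2398, 905 and 29.2, and those of mdfi and mdfic2 overlap near 0.

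The myod1 transcript rna15913 lies on the minus strand of linkage group 7 at 3596680-3600520 of the assembly O_niloticus_UMD_NMBU, with 4 exons and 2060 bases. MyoD is the bHLH factor that can by itself convert fibroblasts to muscle in mammalian cell culture. Its normalized counts were 1844, 2290.3, 850.4, 2303 and 2037 in fish M1 to M5. M3 was the low fish, and the other 4 lay between 1844 and 2303. The coefficient of variation (CV) over the 5 fish was 32.1%, and 10.4% without M3, against 2.40% from counting error alone. The raw counts behind these values were 785 in M3 and 1120 in M1, and the exact 95% Poisson intervals of these counts, 731 to 842 and 1055 to 1188, do not overlap. Depth is not taken out of these intervals, and M3 was the deeper library (size factor 0.923 against 0.607 in M1). The mean was 1865 ± 598 (SD, n = 5 fish), and 2119 without M3. The summed level of the 9 fast fibre genes was also lowest in M3, at 1667070 per kilobase against 1836790 to 2144740 in the other fish, although its most abundant gene, acta1b, was lowest in M5. What part this had in the myod1 value was not tested.

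The second myod1 transcript, rna15914, is shorter (1076 bases, 950 of them shared). It had 912 ± 299.96 normalized counts per kilobase (SD, n = 5 fish), and it too was lowest in M3, at 416 per kilobase against 903 in M1. The 3′ end of myod1 lies 2987 bases from the 3′ end of LOC100707421, the fast skeletal troponin T gene, which is transcribed towards it and had 325528 ± 31278 normalized counts (SD, n = 5 fish). The exons of both genes do not overlap (0 bases). The counts that rna15913 has in excess of rna15914 were set against the 1110 bases outside the shorter transcript, a stretch that includes the 3′ end. They amounted to 796 ± 252 per kilobase (SD, n = 5 fish). This value understates the density there, since fragments that touch the shorter transcript, which has 126 bases of its own, are subtracted. The 3′ end was not measured by itself. Troponin T was also lowest in M3, at 289166 normalized counts against 310992 in M5, the next lowest. What part its transcription had in the myod1 counts was not tested.

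The mef2ca gene lies on the plus strand of the same linkage group, 5418900 bases from myod1, and the transcript rna16355 (9033059-9055248, 11 exons, 4942 bases) is 1 of 5 listed for it. Mef2c in mammals is needed for the sarcomere and fibre-type genes of muscle. The normalized counts were 11859, 10449, 15127, 12456 and 9354 in fish M1 to M5. M3 was the highest fish for mef2ca, while it was the lowest for myod1. The mean was 11849 ± 2196 (SD, n = 5 fish), with a CV of 18.5%, and 11030 without M3. The 5 transcripts share nearly all exons and therefore nearly all fragments, so the isoforms were not resolved. Their means ran from 11849 for rna16355 to 12001 for rna16351, and rna16351 was slightly above rna16355 in every fish (7306 against 7203 raw counts in M1).

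The single myf5 transcript lies on the minus strand of linkage group 17 at 15815227-15818324, with 3 exons and 1954 bases. Myf5 is the earliest bHLH factor of the mouse myotome and a marker of muscle precursor cells. The normalized counts were 69.1, 63.1, 75.8, 39.9 and 36.9 in fish M1 to M5. M4 and M5 were the lower fish, from raw counts of 33 and 37, and M2 had 139 counts in its deeper library. The mean was 57.0 ± 17.6 (SD, n = 5 fish), a CV of 30.9% against 13.8% from counting error alone. When each library was drawn down to the total of M1, myf5 still had between 26 and 49 counts in every fish.

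The inhibitor genes mdfi and mdfic2 both lie on linkage group 5, mdfi on the plus strand at 25462435-25491936 and mdfic2 on the minus strand at 32127906-32135387. The myogenin gene is 148872 bases from mdfi. The raw counts of mdfi were 1, 9, 9, 4 and 6 in fish M1 to M5. The exact 95% Poisson intervals of these counts, which cover counting error only, reach from 0.0253 to 5.57 in M1 and from 4.12 to 17.1 in M2 and in M3. M3 had the highest normalized count, 9.75, and M1 the lowest, 1.65. The intervals of the raw counts of these 2 fish, with depth not taken out, overlap. Of the 5 listed mdfi transcripts, 4 had the same counts in every fish, and rna10855, which is shorter (1973 bases), had between 1 and 5 counts.

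The raw counts of mdfic2 were 1 in M2, 2 in M5 and 0 in M1, M3 and M4, or 3 counts in 5 libraries. The limit set by a count of 0, taken as 3 counts, equals 4.94 normalized counts in M1, 3.25 in M3 and 3.62 in M4. At this depth mdfic2 was not detectable in M1, M3 and M4. Part of the mdfic2 gene lies within LOC106098041 on the opposite strand, whose mean was 0.363 normalized counts, and their exons do not overlap.

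The ratios within each fish set these levels side by side. The ratio of myod1 to mef2ca per kilobase was 0.373, 0.526, 0.135, 0.444 and 0.522 in fish M1 to M5. The mef2ca level was above that of myod1 in 5 of 5 fish, by 2.77-fold as a geometric mean and by 7.41-fold in M3. The log2 ratio of myod1 to mef2ca was -1.47 ± 0.82 (SD, n = 5 fish), and without M3 its SD was 0.23 and the geometric mean ratio 0.462. M3 was the fish that stood apart.

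The ratio of myod1 to myf5 was 25.3, 34.4, 10.6, 54.8 and 52.4 in fish M1 to M5, with a geometric mean of 30.2. The fish at both ends differ in both genes. M3 had the lowest myod1 and the highest myf5 of the 5 fish, and M4 and M5 had the lowest myf5. The ratio of mef2ca to myf5 was 67.8, 65.5, 78.9, 124 and 100.3 in the same fish, with an SD of 0.38 on the log2 scale against 0.96 for myod1 to myf5.

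Against the inhibitors, the ratios rest on few counts. From the counts summed over the 5 fish, myod1 was 1023 times as high as mdfi per kilobase (exact 95% interval of the counts 712 to 1528), and mef2ca was 2499 times as high (1740 to 3731). The intervals of summed counts cover counting error only and leave out the spread between fish. The sums weight each fish by its depth. In single fish the ratio of myod1 to mdfi was 3048, 1526, 237, 1297 and 927 in fish M1 to M5. M3 was low here too, where its low myod1 value enters again, and the value of M1 rests on a single mdfi count. Against mdfic2 the summed ratios were 1780 for myod1 (609 to 8632) and 55.3 for myf5 (18.7 to 269). The summed ratio of mdfi to mdfic2 was 1.74 (0.539 to 8.93), an interval that includes equality.

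All 10 pairs of the 5 genes were tested on the log2 ratio per kilobase (0.5 count added to each) with an exact two-sided sign-flip permutation test over the 5 fish, in which no p below 0.0625 can be reached. For 9 pairs the sign was the same in 5 of 5 fish, at that smallest p of the exact test (adjusted over 10 pairs, 0.0694). The tenth pair, mdfi and mdfic2, had a mean log2 ratio of 0.13 ± 1.18 (SD, n = 5 fish) and an exact p of 0.938. The order mef2ca, myod1, myf5 held in 5 of 5 fish, and mdfi and mdfic2 were not separated.

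**Figure D2:**
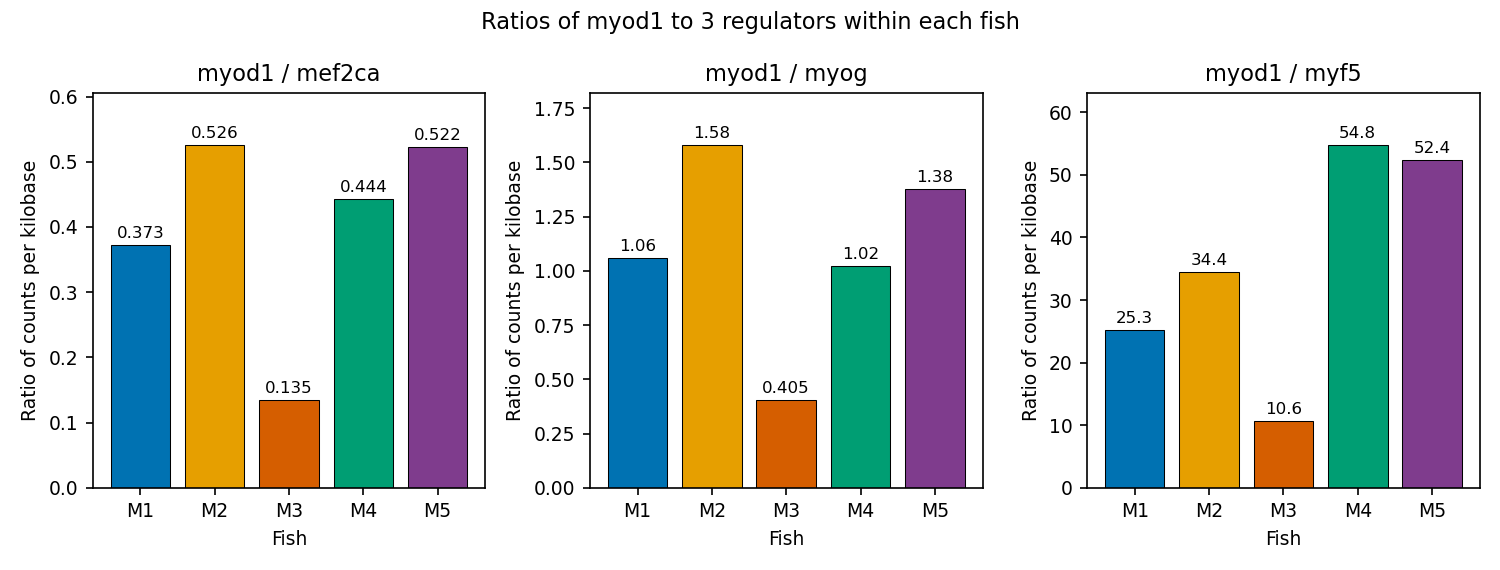
Ratio of normalized counts per kilobase (y axes, from 0) of myod1 to mef2ca, to myog and to myf5 in each fish (x axes), 1 bar per fish. M3 has the lowest bar in each panel, at 0.135, 0.405 and 10.6. The same low myod1 value of M3 enters each of these ratios, so they are not separate observations.

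The 5 bHLH genes of the family all had at least 10 counts in every fish. Per kilobase the means were 905 ± 290.5 for myod1, 875 ± 175 for myog, 136 ± 102 for the paralog myod2, 132 ± 11.9 for myf6 and 29.2 ± 9.002 for myf5 (SD, n = 5 fish). Of their summed level, myod1 took 43.1% ± 11.5, myog 42.8% ± 10.2, myf6 6.51% ± 1.23, myod2 6.13% ± 3.26 and myf5 1.47% ± 0.621 (SD, n = 5 fish). In M3 myod1 took 24.4% and myog 60.1%.

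Myogenin, the bHLH factor of differentiation, had 1340.2, 1114, 1613, 1729 and 1137 normalized counts in fish M1 to M5. M3 was not low for myog. The ratio of myod1 to myog per kilobase was 1.06, 1.58, 0.405, 1.02 and 1.38 in fish M1 to M5. The mean log2 ratio was -0.01 ± 0.77 (SD, n = 5 fish; exact sign-flip permutation test, two-sided, p = 1.00), and 0.31 without M3. No order of myod1 and myog was established.

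The paralog myod2, on linkage group 1, had 119, 131, 134, 466 and 143 normalized counts in fish M1 to M5. M4 was far above the others, and the mean fell from 199 to 132 without M4. M4 was thus high for myod2 and, at 2303, in the upper band of myod1. Only primary alignments were counted, and the sequence identity of myod1 and myod2 was not measured, so an exchange of fragments between them was not tested.

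The myf6 gene is the neighbour of myf5 on linkage group 17, 6059 bases away on the same strand, a linkage that vertebrates share. Its normalized counts were 132, 109.8, 127, 127 and 142 in fish M1 to M5. It was above myf5 in 5 of 5 fish, by 4.68-fold per kilobase. The 2 listed myf6 transcripts had equal counts in 5 of 5 fish, so the longer one added 0 fragments of its own. With the length of the longer transcript the ratio of myf6 to myf5 was 2.52. In M5 myf5 was lowest and myf6 was highest.

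All 4 MEF2 genes of the list had at least 10 counts in every fish. By their most expressed transcripts, mef2ca had 2340.3 ± 437 normalized counts per kilobase, mef2aa 383 ± 125, mef2d 237 ± 8.87 and mef2b 9.34 ± 1.68 (SD, n = 5 fish). The mef2ca level was above mef2aa by 6.28-fold, above mef2d by 9.74-fold and above mef2b by 245-fold, in 5 of 5 fish each. The mef2d gene had normalized counts from 1628 in M2 to 1795 in M5 in the 5 fish, while mef2aa ran from 1445 in M5 to 2962 in M1.

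Of the summed level of these 4 genes, mef2ca took 78.8% ± 2.55, mef2aa 12.7% ± 2.76, mef2d 8.18% ± 1.47 and mef2b 0.323% ± 0.0850 (SD, n = 5 fish). The mef2ca share lay between 74.8% in M1 and 81.6% in M4, and M3, at 80.1%, was within this range.

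The locus LOC106096594, on linkage group 12 at 15926074-15995315, was added after its values were seen, and its identity is uncertain. RefSeq lists it as a long noncoding RNA, while the study's supplement gives 1 of its transcripts the name mef2c, so it was kept out of the MEF2 list. It had 521 ± 134 normalized counts per kilobase (SD, n = 5 fish), below mef2ca in 5 of 5 fish, and its mean was above that of mef2aa (383). The study's supplement also names a MEF2D homolog, LOC100690941, which is not among the listed MEF2 genes. The MEF2 shares above therefore cover the listed genes alone.

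Among the 3 inhibitor genes, mdfic (rna48446) was the one with at least 10 counts in every library. The names here are those of RefSeq. The study's supplement gives the name mdfic to rna48446 and also to rna10856, which is called mdfi here. The transcript rna48446 had 31.3, 46.3, 37.9, 27.8 and 49.8 normalized counts in fish M1 to M5, or 11.3 per kilobase as a mean. The level of mdfic was 11.95 times that of mdfi as a geometric mean and was above mdfi and mdfic2 in 5 of 5 fish. Per kilobase, mdfic was still below myf5 in 5 of 5 fish, nearest in M5 with 14.5 against 18.9. The 3 inhibitors together reached between 8.96 in M4 and 17.6 in M5, against 1693 to 2680 for the 5 bHLH genes.

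Over the 3 families, 13 pairs of one of the 5 genes with a relative were tested in the same way. For 11 of them the sign was the same in 5 of 5 fish, at the smallest p the exact test allows (0.0625, adjusted 0.0739). The exceptions were myod1 against myog, given above, and mdfi against mdfic2 (exact p = 0.875, adjusted 0.948).

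**Figure D3:**
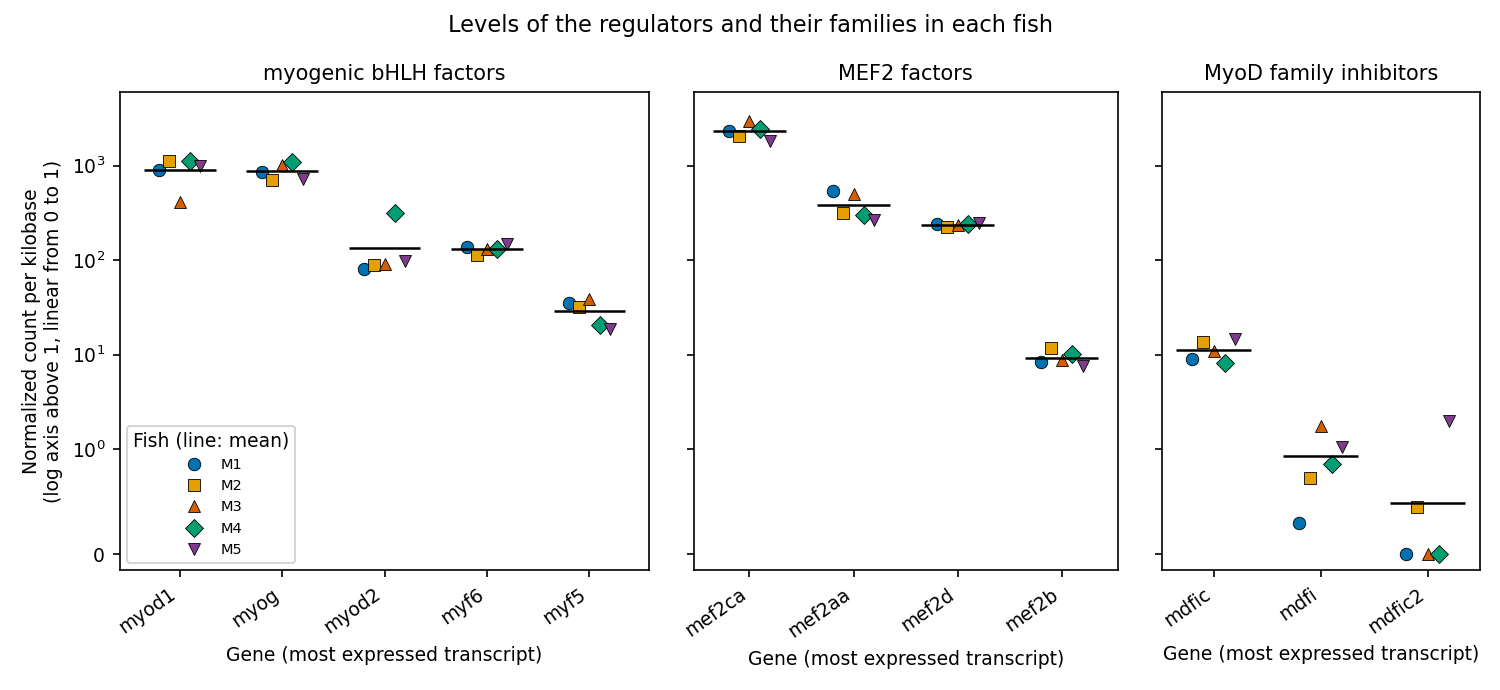
Normalized counts per kilobase (y axis, logarithmic above 1 and linear from 0 to 1) of the bHLH, MEF2 and MyoD-family inhibitor genes (x axes), each by its most expressed transcript, in each fish (symbols) with the mean as a line. The myod1 and myog points overlap, mef2ca stands above every other listed MEF2 gene in every fish, and mdfic stands above mdfi and mdfic2.

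MyoD and Myf5 bind DNA as partners of E proteins, and Id proteins, which lack a DNA-binding region, occupy E proteins and so keep them from the myogenic factors. All 4 matched E protein genes (tcf3a, tcf3b, tcf4 and tcf12) had at least 10 counts in every fish. The most abundant was tcf4, with 49.6 ± 3.30 normalized counts per kilobase, and the least was tcf12, with 28.1 ± 5.10 (SD, n = 5 fish). The tcf3b gene had 38.2 and tcf3a 33.9, the latter with 326 normalized counts in M5 and between 130.0 and 163 in the other fish.

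Of 4 Id genes, 2 met the minimum in every fish. The id1 gene had 408 normalized counts in M1, 397 in M2, 180 in M3 (from 166 raw counts), 343 in M4 and 300.02 in M5, so M3 was the low fish for id1 as it was for myod1. The id3 gene had 99.2 ± 21.3 normalized counts, id2a 11.6 ± 4.605 and id4 1.34 ± 1.64 (SD, n = 5 fish).

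The level of myod1 was 5.98 times the summed E protein level in M1, 6.80 times in M2, 3.12 times in M3, 7.93 times in M4 and 6.10 times in M5. Against the summed Id level it was 1.83, 2.38, 1.73, 2.76 and 2.84 times in fish M1 to M5. M3, whose low myod1 value enters both, stood apart in the first ratio, while in the second it was close to M1. For mef2ca, which does not pair with E proteins, the ratio to the summed Id level was 12.8 in M3 and between 4.53 and 6.22 in the other fish. The summed Id level was itself lowest in M3, at 239 per kilobase against 348 to 490 in the other fish. This low sum enters the Id ratios of both myod1 and mef2ca in M3.

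**Figure D4:**
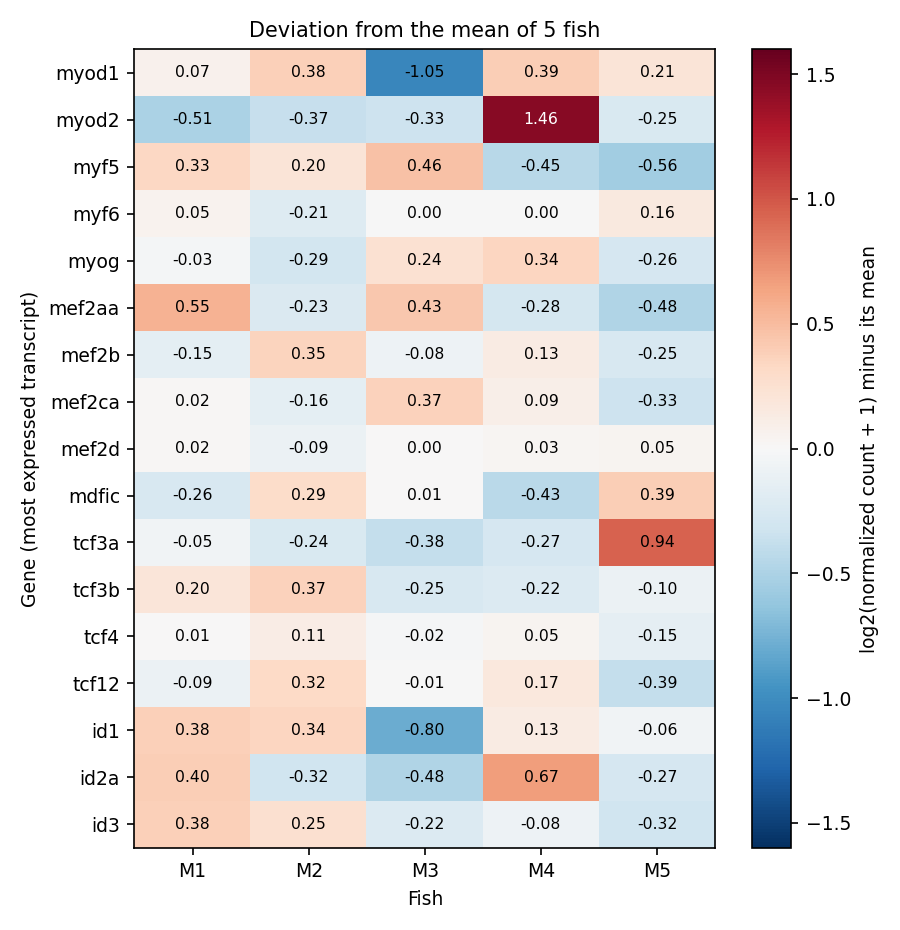
Deviation of log2(normalized count + 1) from its mean over the 5 fish (colour and printed value) for each bHLH, MEF2, inhibitor, E protein and Id gene with a mean of at least 10 normalized counts (rows) in each fish (columns). In M3, myod1 is at -1.05 and id1 at -0.80 while mef2ca is at 0.37, myod2 is at 1.46 in M4, and tcf3a is at 0.94 in M5.

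The spread between fish was put on a common scale by fitting edgeR's dispersion to the 28066 transcripts that met the minimum of 10. The biological coefficient of variation (BCV) is edgeR's estimate of the spread beyond counting error for each transcript. It is drawn toward the trend of transcripts of like level, so it is not the gene's own spread alone. The BCV was 0.343 for myod1, 0.283 for myf5 and 0.260 for mef2ca, where the trend was 0.303, 0.284 and 0.313. Among 649 genes with a mean between 1024 and 2048 normalized counts, the median BCV was 0.253, the 10% and 90% limits were 0.224 and 0.355, and 88.3% of the genes lay below myod1. For mef2ca the median of 104 genes between 8192 and 16384 was 0.259, close to its BCV, which is above its CV of 18.5%. For myf5 the median of 1976 genes between 32 and 64 was 0.257. Without M3 the BCV of myod1 was 0.244, beside a CV of 10.4%. It lay between 0.339 and 0.370 when 1 of the other fish was left out.

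**Figure D5:**
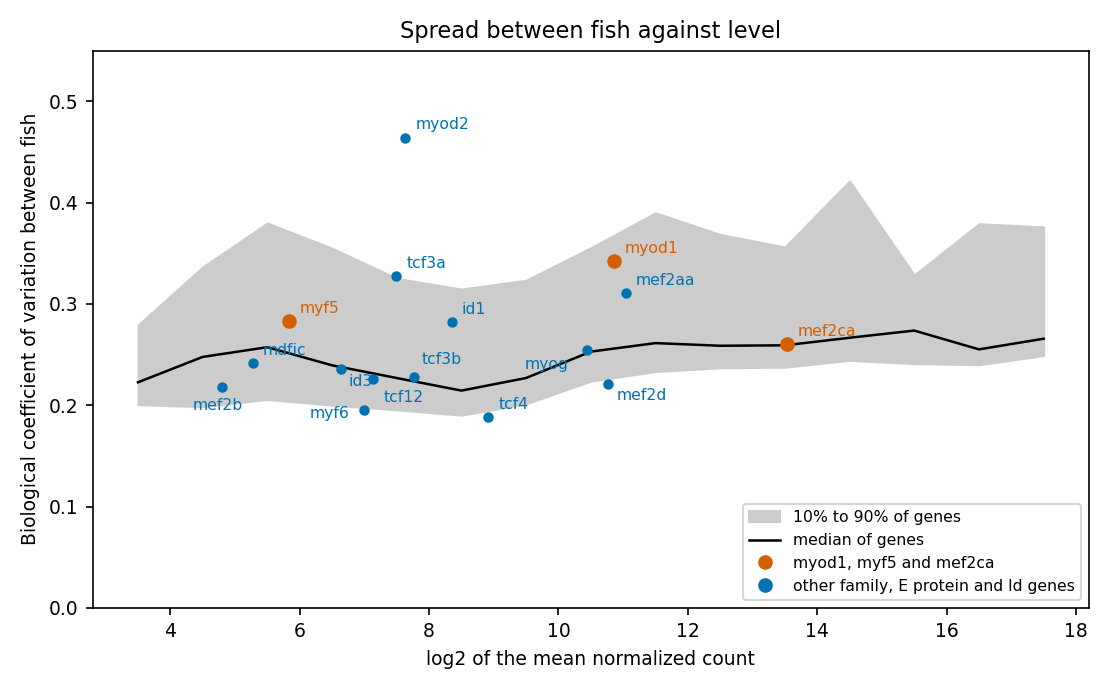
Biological coefficient of variation between fish (y axis) against the log2 mean normalized count (x axis), with the median (line) and the 10% to 90% range (grey) of all genes in classes of like level with at least 10 genes. The points are myod1 at 0.343, myf5 at 0.283, mef2ca at 0.260 and the other family, E protein and Id genes, of which myod2 is the highest at 0.464.

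The lists of other regulators give the setting of these levels. The factors of the sine oculis and EYA families, which act upstream of bHLH genes in vertebrate muscle, had 6 of 7 genes with at least 10 counts in every fish, from six5 at 3.77 to eya4 at 534 normalized counts per kilobase. Eya4 was, like mef2ca, highest in M3, at 3718 normalized counts. Of 17 genes listed as other inhibitors of myogenic factors (Twist, Snail, Hey and class IIa histone deacetylase genes among them), 13 met the minimum, from hey2 at 10.02 to bhlhe40 at 1723 per kilobase. Among all genes, 27.5% met the same minimum.

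Of 7 satellite cell markers, 4 met the minimum, from megf10 at 5.54 to itga7 at 290 normalized counts per kilobase. The gene pax7a, the defining factor of satellite cells, had 11.5, 26.3, 34.7, 13.3 and 11.0 normalized counts in fish M1 to M5. Its raw counts were between 7 and 58 per library, and M3 was its highest fish, as it was for myf5. Of the other markers, itga7 had the same order of fish as pax7a, while cdh15, met, sdc4 and megf10 did not. In normalized counts, itga7 was highest in M3 (2322), cdh15 in M2 (106), and met in M4 (19.3), while sdc4 (341) and megf10 (28.2) were lowest in M3. The summed level of the 7 markers lay between 358 per kilobase in M5 and 544 in M3, where itga7 alone made up 405. The part of satellite cells in the myf5 levels was not tested. The gene pax3a had 1 count in all. Of 6 myoblast fusion genes, 5 met the minimum, from jam3a at 7.49 to mymx at 70.7 per kilobase, and mymk, the gene of the fusion protein myomaker, had 10.3.

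Of 6 genes of the neuromuscular synapse that myogenic factors regulate in mammals, 5 met the minimum, from musk at 40.7 to chrnd at 371 normalized counts per kilobase. The adult acetylcholine receptor subunit gene chrne had 584 ± 150 normalized counts (SD, n = 5 fish), and the embryonic subunit gene chrng had 2 counts in the 5 libraries together. In M3, where myod1 was low, chrne (625 normalized counts), chrnd (1599) and rapsn (177) were within the range of the other fish, while musk (237 against 112 to 177) and chrnb1 (258 against 191 to 230) were above it.

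Nearness in level per kilobase over the 5 fish was taken as the root mean square difference of log2(level + 1). The search covered 17621 genes whose symbol does not start with LOC, so genes with LOC names were left out. Among those searched, some were nearest to myod1, mef2ca and myf5. For myod1 they were eif3ea, a translation initiation factor subunit, at 0.297, and the ubiquitin ligase gene znrf1 at 0.342. The search used M3 too, so their low values there, 622 per kilobase for eif3ea and 570.4 for znrf1, follow from it and are no separate observation. For mef2ca they were cacna1sb, the calcium channel of the muscle T-tubule, at 0.202, and zgc:92606 at 0.236. For myf5 they were zgc:152863 at 0.120 and haao, an enzyme gene of tryptophan breakdown, at 0.148.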

How the data were processed

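Fast muscle libraries of the 5 fish (1 group) were used. The authors trimmed the reads with BBDuk, aligned them with HISAT2 2.1.0 to the tilapia genome and counted fragments per transcript with featureCounts, and deposited these raw counts with the exon length of each transcript. Primary alignments were counted and a fragment could match several transcripts. The strand setting of the counting is not given in the sources used here.

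Counts were divided by DESeq2 1.42.0 size factors and by exon length in kilobases, and a pseudocount of 0.5 count entered the log2 ratios alone. The spread was fitted with edgeR 4.0.16 in R 4.3.3. The remaining steps ran in Python 3.11.15 (scipy 1.17.1, numpy 2.4.6, pandas 2.3.3, matplotlib 3.10.9). Features were matched by coordinates to RefSeq genes on O_niloticus_UMD_NMBU (79925 of 80416 matched 1 gene), and 102 of 123 list symbols matched. The steps were tested on simulated data. Library totals ran from 26750559 to 90337019. Intervals and floors cover counting error only, since reads without molecular identifiers are not independent molecules. The fish are full siblings, so the spread and the p-values are those of 1 family.

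The 5 genes and the lists were chosen with earlier results of these data known. Named are the 5 genes, their families, the E protein and Id genes, the highest and lowest detected gene of each other list of regulators, and the 2 genes nearest in level; the marker lists, whose highest and lowest genes the rule also takes in, are given by counts and summed levels. Named outside this rule, after their values were seen, were LOC106096594, troponin T, pax7a, pax3a, mymk, chrne, chrng, rapsn, chrnb1, met, cdh15, sdc4, bhlhe41, mybpc1, mylpfb, tnnc1a, tnnt1, tnni1a, pparg, cidec and marker genes at 0. Alternatives were other scalings, pseudocounts of 0.1 and 1, no division by length, other transcripts and detection minimums, drawn-down libraries and leaving out each fish.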

Additional observations from a re-analysis of the deposited data

Results flagged for a closer look

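For each set of 5 values, the gap of the most extreme fish to its neighbour was divided by the whole range, and Dixon's 95% limit of 0.71 was applied. Of 28 sets of values 5 were past it. For independent sets of normally distributed values, chance gives about 1.4, or about 1 in 20 sets. The sets here are not independent, since the ratios reuse genes that also form sets of their own. An excess over chance was not tested. The library total of M2, 90337019 counts, was far above the next, 38643609. The log2 ratio of myod1 to mef2ca in M3, -2.89, was far below the next, -1.42 in M1. In raw counts this ratio in M3 rests on 785 and 13963. The normalized count of myod2 in M4, 466, was far above the next, 143 in M5, and the mean was 132 without M4. That of tcf3a in M5, 326, was far above the next, 163 in M1, and the mean fell from 180.3 to 144 without M5. That of mdfic2 in M5, 1.99, rests on 2 raw counts, with 0.454 in M2. The myod1 level in M3 was not past the limit, at a ratio of 0.684. No explanation was tested for these values.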

How the results depend on the processing

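No paired analysis was possible because all 5 libraries belong to 1 group; the tests given pair genes within a fish. Of the alternatives of ratios, detection counts and spreads, 203 kept their direction or stayed within 1.5 times the value, and 6 reversed. The 203 include alternatives that could not change a value. Other scalings cancel in a ratio within a fish, and the choice of transcript leaves a pair as it is where the same transcripts are used. No ratio can pass the threshold with 5 fish, so only directions were compared. The log2 ratio of mdfi to mdfic2 was 0.13, and it was -0.44 with a pseudocount of 1 count, 1.51 with 0.1 count and 2.61 (exact permutation p = 0.0625, the smallest possible) with no division by length, while leaving out each fish gave from -0.27 (without M3) to 0.44, and from -0.27 to 0.45 with each gene by its most expressed transcript. These ratios rest on 29 and 3 counts. The log2 ratio of myod1 to myog ran from -0.18 to 0.31, the latter without M3. Of 5 genes, 3 were detected in every fish under each minimum of 10 and in libraries drawn down to the smallest, and 4 with a minimum of 1 count. Of the other values, 69 stayed and 4 moved: the genes detected rose from 1 to 2 of the inhibitors, from 2 to 5 of the slow fibre list and from 0 to 2 of the liver list with a minimum of 1 count, and to 4 of the slow fibre list with a mean of at least 10. Among the 5 genes, mdfi and mdfic2 alone did not reach 10 counts in every fish. Counting error also enters the values of myf5, at 13.8% beside a CV of 30.9%.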

Other observations

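The bHLH repressor gene bhlhe40, which is tied to the circadian clock in mammals, had 7134, 6359, 3374, 4662 and 530.3 normalized counts in fish M1 to M5. M5 was the low fish, and the mean rose from 4412 to 5382 without it. Its paralog bhlhe41 was also lowest in M5, at 78.7 normalized counts against 178 to 457 in the other fish.

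The slow myosin-binding protein gene mybpc1 had 1126 normalized counts in M1, and its mean was 7.65 over the other 4 fish. The paralog mylpfb of the fast light chain gene had 1740.2 in M1 and a mean of 137 over the other 4. The genes atp2a1, with 299.6 normalized counts in M1 against 11.8 to 53.2 in the other fish, and tnnc1a, with 42.8 against 1.36 to 7.25, were also highest in M1. Of the other slow fibre genes with a count, only tnnt1 was also highest in M1, at 6.59 normalized counts. The slow fibre genes atp2a2a (122 against 128 to 285) and tnni1a (1.65 against 3.62 to 9.97) were lowest in M1. In M1, myod1, myog and mef2ca lay between their values in the other fish.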
